A study of Mus musculus with 7 samples.

Results

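The 10 genes described here encode the stem cell heptad, the transcription factors Gata2, Tal1, Lyl1, Lmo2, Runx1, Fli1 and Erg, and their partners Gata1, Ldb1 and Cbfb. They were picked out by symbol, with no threshold on a measured value, though with earlier results of these data known, and all 10 were found among the 39179 rows of the gene table and among the 12813 rows that were tested. RNA was measured by bulk RNA sequencing of LSK cells, the lineage-negative, Sca-1-positive, Kit-positive cells of bone marrow that hold the blood stem cells and multipotent progenitors. The 3 Jmjd1c libraries came from Jmjd1c f/f Vav1Cre mice and the 4 control libraries from Vav1Cre mice, all 7 weeks old and of the strain given as C57/BL6. Both groups carry the Vav1Cre transgene, whose Vav1 promoter drives Cre recombinase throughout the blood lineages, and in the Jmjd1c group it acts on the floxed gene. The labels do not say whether the controls carry a floxed allele, which exons are floxed, or how many animals stand behind a library. P-values therefore cover only the library-to-library spread, part of which may be technical, and among the controls possibly all. Jmjd1c 3 differed from Jmjd1c 1 and 2 in sex-linked genes, as given below, so these libraries are not all from the same animals. The comparison asks whether the genes for the core stem cell factors differ in LSK cells labelled Jmjd1c f/f Vav1Cre; Jmjd1c encodes a nuclear JmjC protein related to the H3K9 demethylases KDM3A and KDM3B.

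The heptad factors bind together at many enhancers of blood stem and progenitor cells. Tal1 and Lyl1 are related basic helix-loop-helix proteins that pair with E proteins and bind E-box sequences, Lmo2 is a LIM-only protein that binds no DNA itself, and Ldb1 is the adaptor that joins Lmo2 complexes to each other. Gata1 and Gata2 are zinc finger proteins that bind GATA sequences, Runx1 binds DNA with its partner Cbfb, and Fli1 and Erg are ETS-family proteins. In progenitors Gata2 is the main GATA factor, and Gata1 replaces it as erythroid, megakaryocytic and mast cell lineages mature. Several of these genes are regulated by the same factors that they encode.

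The promoters are shown because of that mutual regulation, and because some of the fold changes below moved with a correction for base composition. RefSeq entries of build GRCm38.p6 gave 15 windows for 8 of the 10 genes, each running from 250 bases before to 50 bases after a transcription start, while Lmo2 and Fli1 had no entry. Windows were searched on both strands for AGATAA, the GATA motif, for CAGATG, the E-box preferred by Tal1, for CCGGAAG, an ETS motif, and for TGTGGT, the RUNX motif. In the sequences, all 5′ to 3′ on the strand of the gene, capitals mark these matches or their reverse complements (TTATCT for the GATA motif, CATCTG for the E-box, CTTCCGG for the ETS motif, ACCACA for the RUNX motif), and none of the matches shown overlapped another. They are Gata2 at chr6:88193641-88193940 on the plus strand, Gata1 at chrX:7967861-7968160 on the minus strand, Tal1 at chr4:115056176-115056475 on the plus strand, Lyl1 at chr8:84701207-84701506 on the plus strand, an internal start of Ldb1 at chr19:46037021-46037320 on the minus strand, and the distal start of Runx1 at chr16:92826025-92826324 on the minus strand.

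Gata2 promoter: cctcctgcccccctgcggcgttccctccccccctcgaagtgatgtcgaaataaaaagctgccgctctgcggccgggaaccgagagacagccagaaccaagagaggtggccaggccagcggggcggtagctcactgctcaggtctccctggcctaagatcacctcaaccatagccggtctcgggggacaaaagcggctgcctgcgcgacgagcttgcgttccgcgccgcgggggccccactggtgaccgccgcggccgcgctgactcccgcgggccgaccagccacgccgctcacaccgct

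Gata1 promoter: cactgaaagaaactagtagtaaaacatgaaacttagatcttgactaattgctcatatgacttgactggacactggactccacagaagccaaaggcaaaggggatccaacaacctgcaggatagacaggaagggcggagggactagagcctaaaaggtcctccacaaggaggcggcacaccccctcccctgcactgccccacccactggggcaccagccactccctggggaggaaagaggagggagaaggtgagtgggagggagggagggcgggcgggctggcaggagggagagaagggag

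Tal1 promoter: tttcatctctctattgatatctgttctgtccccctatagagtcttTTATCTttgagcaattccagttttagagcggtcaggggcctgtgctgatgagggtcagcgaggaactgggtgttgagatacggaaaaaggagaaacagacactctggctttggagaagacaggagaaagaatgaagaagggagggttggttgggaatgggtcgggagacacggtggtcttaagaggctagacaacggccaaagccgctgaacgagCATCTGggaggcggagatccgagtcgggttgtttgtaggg

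Lyl1 promoter: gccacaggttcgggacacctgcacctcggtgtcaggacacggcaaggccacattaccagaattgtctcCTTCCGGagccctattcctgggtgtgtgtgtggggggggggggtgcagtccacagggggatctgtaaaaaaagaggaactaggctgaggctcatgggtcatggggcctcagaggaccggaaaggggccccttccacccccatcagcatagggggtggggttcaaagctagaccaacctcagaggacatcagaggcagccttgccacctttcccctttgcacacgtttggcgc

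Ldb1 promoter: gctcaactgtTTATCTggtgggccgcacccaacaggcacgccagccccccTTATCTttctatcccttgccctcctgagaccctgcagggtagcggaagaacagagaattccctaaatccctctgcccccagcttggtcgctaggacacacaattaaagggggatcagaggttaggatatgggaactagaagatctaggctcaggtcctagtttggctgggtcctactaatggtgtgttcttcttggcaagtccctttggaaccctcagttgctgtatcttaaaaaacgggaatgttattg

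Runx1 promoter: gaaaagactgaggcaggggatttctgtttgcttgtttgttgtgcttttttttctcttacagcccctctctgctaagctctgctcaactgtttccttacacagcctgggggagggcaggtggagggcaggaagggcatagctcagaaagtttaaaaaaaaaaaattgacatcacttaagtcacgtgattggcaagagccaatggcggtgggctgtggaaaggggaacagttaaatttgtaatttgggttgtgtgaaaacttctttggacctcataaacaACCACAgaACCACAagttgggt

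The GATA motif was found in 3 of the 15 windows, or 20.0%, against 11.2% of all 32851 promoter windows of the same length in the table. Those 3 belonged to Tal1, with 1 match, to the internal Ldb1 start, with 2 matches, and to a start of Erg, with 1 match. The E-box, ETS and RUNX motifs were each in 1 of the 15 windows, the E-box in Tal1, the ETS motif in Lyl1 and the RUNX motif in Runx1, where 2 copies lay 2 bases apart. The shares over all promoters were 17.2% for the E-box, 8.86% for the ETS motif and 16.8% for the RUNX motif, so none of these 3 was more frequent in the windows of the 10 genes. The Gata2 windows held none of the 4 motifs and were rich in G and C, at 69.3% for the start shown and 73.7% for the other, against a median of 52.7% over all promoters. They held 32 and 29 CpG dinucleotides, against a median of 7. The Gata1 window, at 57.3% G and C with 4 CpG dinucleotides, also held none of the motifs. A match or its absence describes only these letters in this window and says nothing of whether a factor binds there.

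Recovered reads assigned to genes were 4416762 to 6253793 in the Jmjd1c libraries and 4303712 to 6436519 in the control libraries, and values are given as normalized read counts, the deposited read counts divided by a factor per library. Jmjd1c itself (ENSMUSG00000037876) had 293.8, 244.2 and 253.6 normalized read counts in the Jmjd1c libraries, against 458.4, 465.9, 516.3 and 512.4 in the control libraries (log2 fold change -0.89 ± 0.09, limma, adjusted p = 0.00407). Its exact permutation p of 0.0286, two-sided, is the smallest that 35 splits allow, and the reads cover all its exons, so the remaining 54.0% does not measure remaining function. The LSK genes Kit (5880 to 7268 in Jmjd1c libraries, 4778 to 6700 in control libraries) and Ly6a, which encodes Sca-1 (728 to 839 in Jmjd1c libraries, 694 to 915 in control libraries), were present throughout, while Cd3e and Ly6g stayed at or below 10.5 in every library. Itgam, another antigen of lineage depletion, had 498 to 918 in Jmjd1c libraries and 460 to 641 in control libraries. Library Jmjd1c 3 stood apart in sex-linked genes, with 2767 normalized read counts of Xist against 4.14 to 9.32 in the other 6 libraries and with Ddx3y, Eif2s3y, Kdm5d and Uty at 0 there alone. Without it, 0 of the 10 genes passed in limma, where only 9 of all tested genes (0.0702%) did, and the log2 fold changes of Gata2, Gata1 and Ldb1 were 0.44, 0.35 and 0.22.

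None of the 10 genes passed the test over all genes in limma at an adjusted p of 0.05, where 1.8% of all tested genes did (1.51% higher and 0.289% lower in Jmjd1c). At an adjusted p of 0.1, 2 of the 10 passed, Gata1 and Gata2, against 5.59% of all genes. An unadjusted p under 0.05 was reached by 3 of them, Gata1, Gata2 and Ldb1, against 19.7% of all tested genes, and all 3 had higher values in the Jmjd1c libraries. In bulk samples, more cells that use a gene and more RNA per cell cannot be told apart. By edgeR on the recovered reads 0 of the 10 passed, where 1.82% of all genes did, and by DESeq2 1 passed, Gata2, where 4.6% did. The log2 fold changes of the 10 genes ran from -0.23 for Tal1 to 0.54 for Gata2, with 8 above 0 and 2 below, where 48.5% of all tested genes were above 0, and their median was 0.08 against -0.01 over all tested genes. The 7 heptad genes alone had a median of 0.08. In Gata1 and Ldb1 every Jmjd1c library lay above every control library, which makes 2 of 10, against 9.74% of all tested genes that were separated in that direction, and 0 of 10 were separated the other way, against 7.1%. Without Jmjd1c 1, 2 of the 10 genes passed, Gata1 and Gata2, while 4.87% of all genes did, or 624 against 231 with all libraries.

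**Figure D1:**
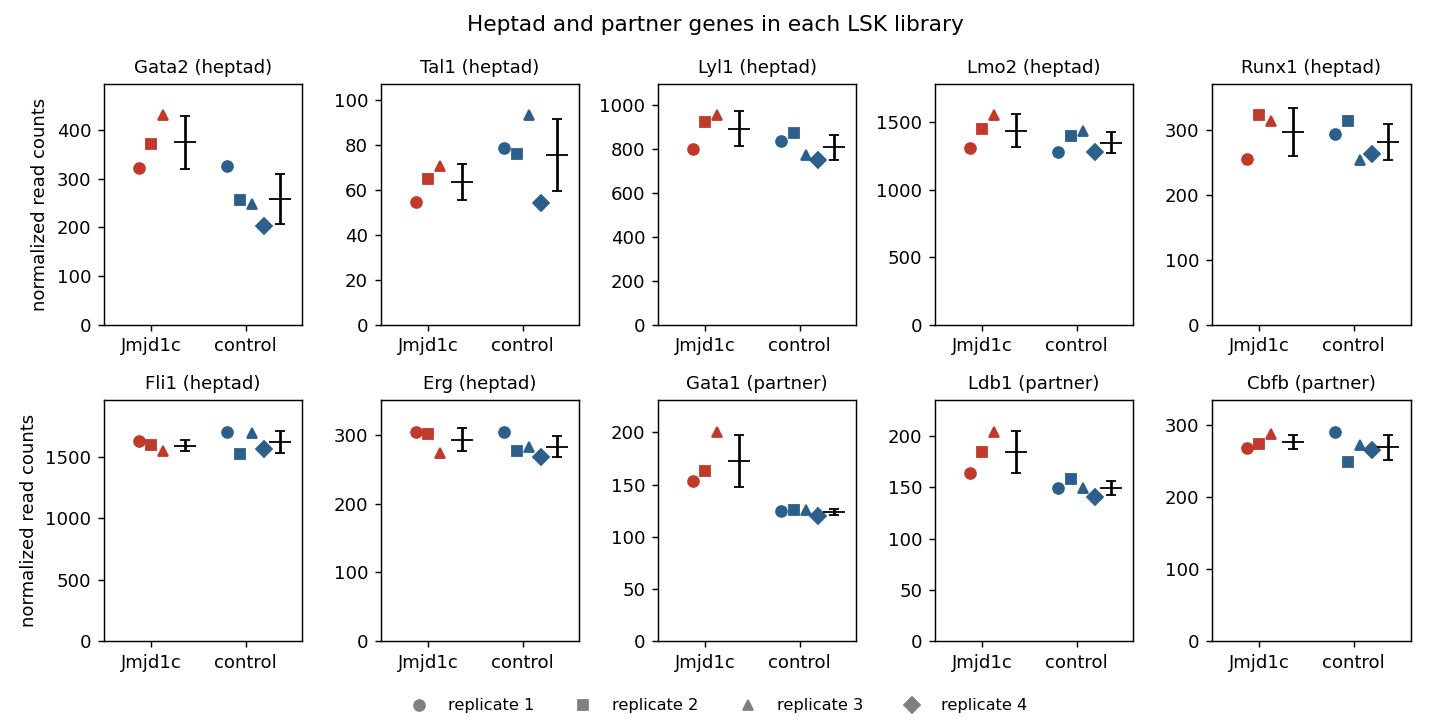
Normalized read counts (linear axes from 0) of each of the 10 genes in each library, with Jmjd1c libraries on the left and control libraries on the right of every panel, a marker shape for each replicate number and a bar for the mean ± SD. Gata1 and Ldb1 are the only panels in which all Jmjd1c points lie above all control points; Gata2 overlaps through Jmjd1c 1 (321.9) and control 1 (325.6).

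Gata2 (ENSMUSG00000015053; mm10 chromosome 6, 88193891 to 88207032, plus strand), which sustains the stem cell pool, had 321.9, 371.0 and 430.9 normalized read counts in the Jmjd1c libraries. The control libraries had 325.6, 257.1, 248.3 and 202.9. Jmjd1c 2 and 3 lay above every control library, and Jmjd1c 1 lay just below control 1 and above the other 3. The means were 375 ± 54.6 in Jmjd1c (SD, n = 3) and 258 ± 50.7 in control libraries (SD, n = 4). The log2 fold change was 0.54 ± 0.15 (95% interval 0.22 to 0.87) and did not pass the test in limma (unadjusted p = 0.00337, adjusted p = 0.0815). Without Jmjd1c 1 it was 0.65 and passed (adjusted p = 0.0487), and DESeq2 on the reads of all libraries gave 0.53 (adjusted p = 0.0203). After correction for the GC content and length of transcripts it was 0.34 (limma, adjusted p = 0.237).

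Gata1 (ENSMUSG00000031162; chromosome X, 7959260 to 7978071, minus strand), the GATA factor of erythroid and megakaryocytic cells, had 153.9, 162.8 and 200.8 normalized read counts in the Jmjd1c libraries. The control libraries had 124.8, 125.5, 125.9 and 119.8. The control libraries lay close together, with an SD of 2.84 around a mean of 124 (n = 4), and every Jmjd1c library exceeded all of them, with a mean of 172 ± 24.9 (SD, n = 3). The log2 fold change of 0.46 ± 0.12 (95% interval 0.21 to 0.72) did not pass the test in limma (unadjusted p = 0.00212, adjusted p = 0.0642). The highest value came from Jmjd1c 3, the library with Xist, and Gata1 is X-linked; without that library the log2 fold change was 0.35 (limma, adjusted p = 0.238). Jmjd1c 1 and 2 had 153.9 and 162.8, against at most 125.9 in the control libraries. Whether the sex-linked difference has a part in the value of Gata1 was not tested. Without Jmjd1c 1 it was 0.54 (limma, adjusted p = 0.0430), and the correction for GC content and length left it at 0.41 (adjusted p = 0.106).

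The balance of the 2 GATA factors did not separate the groups. The ratio of Gata2 reads to Gata1 reads was 2.09, 2.28 and 2.15 in the Jmjd1c libraries, against 2.61, 2.05, 1.97 and 1.69 in the control libraries. The Jmjd1c ratios fell inside the control range.

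Tal1 (ENSMUSG00000028717; chromosome 4, 115056426 to 115071755, plus strand), required for the specification of blood and for erythroid and megakaryocytic maturation, had 54.6, 64.9 and 70.4 normalized read counts in Jmjd1c libraries. Control libraries had 78.4, 76.0, 93.2 and 54.2. All Jmjd1c values fell within the control range because control 4 was the lowest of all 7. The log2 fold change was -0.23 ± 0.19 (95% interval -0.65 to 0.19; limma, adjusted p = 0.535), and without control 4 it was -0.38. This was the least precise estimate of the 10, from 60 to 98 reads per library, and the interval covers both no difference and a sizeable decrease.

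Lyl1 (ENSMUSG00000034041; chromosome 8, 84701457 to 84704715, plus strand), the relative of Tal1 that overlaps with it in adult stem cells, had 799, 921 and 952 normalized read counts in Jmjd1c libraries. Control libraries had 836, 870, 772 and 749. Jmjd1c 2 and 3 were above all control libraries and Jmjd1c 1 was within their range. The log2 fold change was 0.14 ± 0.08 (95% interval -0.04 to 0.32; limma, adjusted p = 0.359), and after correction for GC content and length it was -0.11, on the other side of 0. At 62.6% the Lyl1 transcript is rich in G and C, against a median of 49.4% over all tested genes.

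The ratio of Lyl1 reads to Tal1 reads, which also holds the lengths of both genes, was 14.6, 14.2 and 13.5 in Jmjd1c libraries and 10.7, 11.4, 8.28 and 13.8 in control libraries. The groups overlapped through control 4, the library with the fewest Tal1 reads per Lyl1 read among the controls.

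Lmo2 (ENSMUSG00000032698; chromosome 2, 103957986 to 103981878, plus strand), the bridge between the GATA and Tal1 arms of the complex, had 1307, 1452 and 1553 normalized read counts in Jmjd1c libraries. Control libraries had 1280, 1398, 1435 and 1282. The groups overlapped, and the log2 fold change was 0.09 ± 0.07 (95% interval -0.07 to 0.25; limma, adjusted p = 0.531).

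Ldb1 (ENSMUSG00000025223; chromosome 19, 46031570 to 46045214, minus strand), whose self-association brings distant Lmo2 complexes together, had 163.8, 184.4 and 204.3 normalized read counts in Jmjd1c libraries. Control libraries had 149.6, 158.1, 149.2 and 140.8. Every Jmjd1c library lay above every control library, with means of 184 ± 20.2 (SD, n = 3) and 149 ± 7.07 (SD, n = 4). The log2 fold change was 0.30 ± 0.11 (95% interval 0.06 to 0.53) and did not pass the test in limma (unadjusted p = 0.0192, adjusted p = 0.170). It was 0.11 after correction for GC content and length. Ldb1 shares 177 exon bases with Pprc1 on the other strand, and with the strand setting of the counting not given in the sources used here, reads in those bases cannot be assigned. For Pprc1, which encodes a transcriptional coactivator, the log2 fold change was 0.35 (limma, adjusted p = 0.124).

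The ratio of Lmo2 to Ldb1 reads was 7.98, 7.87 and 7.60 in Jmjd1c libraries and 8.56, 8.84, 9.62 and 9.11 in control libraries. Of the 5 ratios within functional pairs it was the only one in which the groups did not overlap, with every Jmjd1c library below every control library. These ratios were formed after the gene values were known, carry no test and use reads not corrected for GC content and length. Uncorrected, the log2 fold changes were 0.09 for Lmo2 and 0.30 for Ldb1. With the correction they were 0.07 and 0.11, close to each other. The Ldb1 reads may also include some from the exon bases shared with Pprc1.

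Runx1 (ENSMUSG00000022952; chromosome 16, 92601466 to 92826149, minus strand), needed for stem cells to emerge from endothelium in the embryo, had 254.9, 322.5 and 313.5 normalized read counts in Jmjd1c libraries. Control libraries had 292.8, 313.8, 254.1 and 263.2. The groups overlapped almost completely, and the log2 fold change was 0.08 ± 0.11 (95% interval -0.16 to 0.32; limma, adjusted p = 0.733). Its non-DNA-binding partner Cbfb (ENSMUSG00000031885; chromosome 8, 105170674 to 105217989, plus strand) had 267.3, 273.1 and 286.5 in Jmjd1c libraries and 290.4, 248.6, 271.6 and 265.0 in control libraries. The Jmjd1c values lay within the control range, and the log2 fold change was 0.04 ± 0.09 (limma, adjusted p = 0.845). The ratio of Runx1 to Cbfb reads averaged 1.08 ± 0.115 in Jmjd1c libraries (SD, n = 3) and 1.05 ± 0.145 in control libraries (SD, n = 4).

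Fli1 (ENSMUSG00000016087; chromosome 9, 32422204 to 32542861, minus strand), an ETS factor of stem cells and megakaryocytes, had 1631, 1594 and 1545 normalized read counts in Jmjd1c libraries. Control libraries had 1704, 1523, 1690 and 1566. The log2 fold change of -0.03 ± 0.06 had the narrowest interval of the 10 genes, -0.16 to 0.11 (limma, adjusted p = 0.850), and was 0.03 after correction for GC content and length. Erg (ENSMUSG00000040732; chromosome 16, 95359169 to 95586593, minus strand), its close relative that is needed to maintain adult stem cells, had 304.5, 301.9 and 273.6 in Jmjd1c libraries and 304.8, 276.4, 282.1 and 268.4 in control libraries. The groups overlapped, and the log2 fold change was 0.05 ± 0.09 (limma, adjusted p = 0.775). The ratio of Fli1 to Erg reads was 5.28 to 5.65 in Jmjd1c libraries and 5.51 to 5.99 in control libraries.

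**Figure D2:**
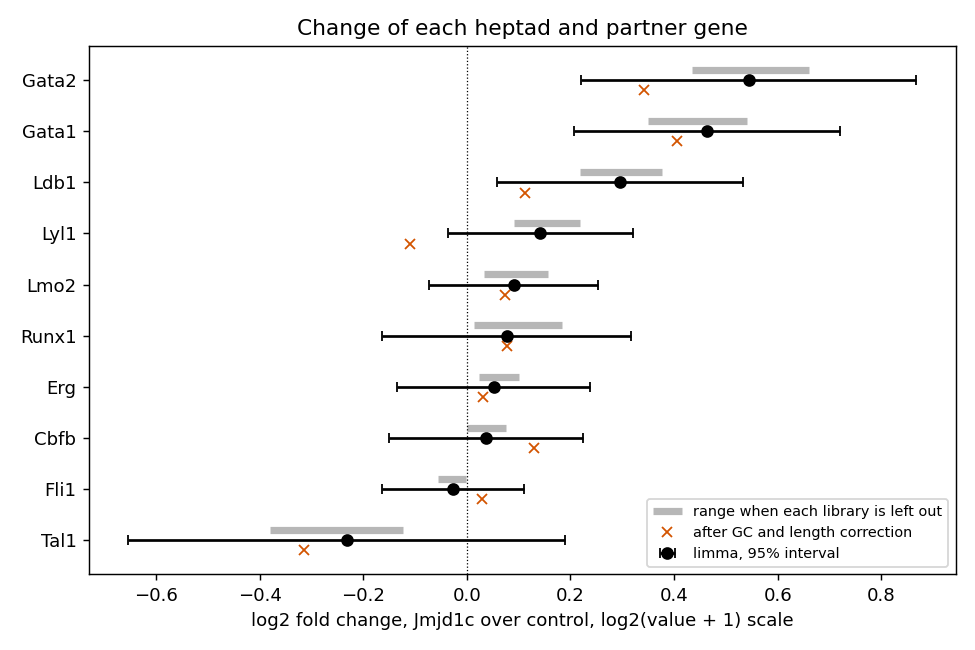
Log2 fold change (Jmjd1c over control, log2 of value plus 1) of each of the 10 genes from limma with its 95% interval, together with the values from the fits that leave out 1 library and from the fit corrected for GC content and length. The intervals of Gata2, Gata1 and Ldb1 lie above 0 and those of the other 7 genes include 0; the correction brings Gata2 to 0.34 and Ldb1 to 0.11.

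The correction for GC content and length lowered several of these fold changes. The median GC content of the 10 transcripts was 53.3%, against 49.4% over all tested genes. With it, the log2 fold changes of Gata2, Ldb1 and Lyl1 were lower, at 0.34, 0.11 and -0.11. Those of Gata1, Lmo2 and Runx1 were 0.41, 0.07 and 0.08, that of Tal1 was -0.31 and that of Cbfb was 0.13. What part base composition has in the uncorrected values was not tested.

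Levels between genes can be compared only per length. Per kilobase of merged exon, Lmo2 was the highest, at 664 ± 57.1 normalized read counts per kilobase in Jmjd1c libraries and 623 ± 36.7 in control libraries. Lyl1 (495 ± 44.9 in Jmjd1c, 448 ± 31.3 in control) and Fli1 (456 ± 12.3 in Jmjd1c, 465 ± 25.8 in control) came next and did not differ from each other beyond their spread. Erg (84.6 ± 4.95 in Jmjd1c, 81.6 ± 4.51 in control) and Cbfb (79.2 ± 2.83 in Jmjd1c, 77.3 ± 4.97 in control) had like levels, well below those 3. Gata1 (70.8 ± 10.2 in Jmjd1c, 50.9 ± 1.16 in control) and Gata2 (69.4 ± 10.1 in Jmjd1c, 47.9 ± 9.39 in control) also did not differ from each other beyond their spread. Ldb1 followed at 40.0 ± 4.39 in Jmjd1c and 32.4 ± 1.54 in control libraries, and Runx1 at 24.7 ± 3.05 in Jmjd1c and 23.4 ± 2.28 in control libraries. Tal1 was lowest at 14.5 ± 1.84 in Jmjd1c and 17.2 ± 3.67 in control libraries (all errors are SDs, n = 3 Jmjd1c and n = 4 control). The middle of this order depends on which exons are counted: per kilobase of the longest transcript Runx1 had 50.7 in Jmjd1c and 47.9 in control libraries, since its merged exons span 12025 bases and its longest transcript 5861, while Lmo2, Lyl1 and Fli1 stayed highest and Tal1 lowest. The RNA of Tal1 was thus the scarcest of these genes on both scales.

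**Figure D3:**
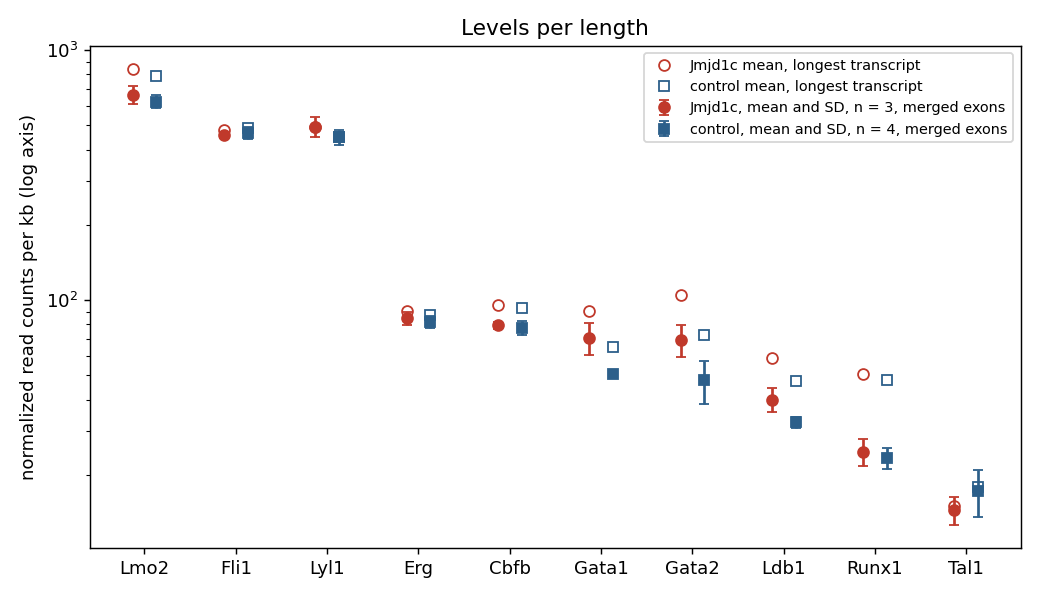
Level of each gene in normalized read counts per kilobase (log axis) in Jmjd1c and control libraries. Filled markers with bars give the group mean ± SD per kilobase of merged exon. Open markers give the group mean per kilobase of the longest transcript. Per kilobase of merged exon, Lmo2, Lyl1 and Fli1 stand together near 448 to 664, Erg to Ldb1 form a middle group, and Runx1 and Tal1 are lowest.

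The proteins that complete these complexes were followed in a list of partners and corepressors, of which 23 were tested. Tcf3, which encodes the E proteins E12 and E47 that pair with Tal1 and Lyl1, rose, 0 fell, and 22 did not pass. Over all tested genes 1.8% passed in limma. Tcf3 had 96.0, 104 and 139 normalized read counts in Jmjd1c libraries and 69.6, 64.0, 61.8 and 54.2 in control libraries, or 0.83 ± 0.16 higher on the log2 scale (limma, adjusted p = 0.0374). The other E protein genes, chosen for mention after their values were seen, had lower values: Tcf4 had 734 to 823 in Jmjd1c and 845 to 948 in control libraries (log2 fold change -0.19, adjusted p = 0.160), and Tcf12 had 198 to 272 in Jmjd1c and 242 to 298 in control libraries (-0.24, adjusted p = 0.295). The median of the list was 0.08, against -0.01 over all tested genes.

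Among the cofactors of Ldb1, which are single-strand-binding proteins that stabilise it, and among the corepressors, none passed and the following were also chosen after their values were seen. Ssbp2 had 1015, 942 and 933 normalized read counts in Jmjd1c libraries and 1067 to 1199 in control libraries (log2 fold change -0.23, limma, adjusted p = 0.0937), and Ssbp3 had 466 to 523 in Jmjd1c and 443 to 508 in control libraries. Ssbp4 was low and uneven, with 24.0, 38.1 and 78.7 in Jmjd1c libraries and 14.0 to 24.1 in control libraries. Cbfa2t3, the ETO-family corepressor that binds the Tal1 complex, had 562, 648 and 587 in Jmjd1c libraries, above all control libraries at 459 to 538 (log2 fold change 0.29, adjusted p = 0.0867); corrected for GC content and length, the log2 fold change was 0.0082 (adjusted p = 0.965). Gfi1b, a repressor that partners with the demethylase Kdm1a, had 255, 296 and 423 in Jmjd1c libraries and 218 to 278 in control libraries, overlapping. Kdm1a (103 to 141 in Jmjd1c, 119 to 134 in control) and the acetyltransferase gene Crebbp (315 to 339 in Jmjd1c, 304 to 410 in control) also overlapped.

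Of the family relatives, 36 were listed and 20 were tested, and 9 had no read in any library, among them Gata4, Gata5 and Gata6, Tal2 and Etv2. Runx3 rose, 0 fell and 19 did not pass, where 1.8% of all tested genes passed, and the list median was 0.12. Runx3, a relative of Runx1, had 187, 238 and 230 normalized read counts in Jmjd1c libraries and 163, 142, 112 and 131 in control libraries, or 0.67 ± 0.14 higher on the log2 scale (limma, adjusted p = 0.0410). Runx2 had 389 to 448 in Jmjd1c and 329 to 449 in control libraries (log2 fold change 0.15, adjusted p = 0.496, and 0.06 corrected for GC content and length), and the groups overlapped. Gata3, the GATA factor of T cells, had 128 to 228 in Jmjd1c and 110 to 173 in control libraries (0.19, adjusted p = 0.672, and -0.08 without Jmjd1c 3). Ets2 had 47.2, 61.8 and 78.7 in Jmjd1c libraries, above 28.0 to 39.8 in control libraries, and did not pass (log2 fold change 0.85, adjusted p = 0.0631). Ets1 had 376 to 487 in Jmjd1c and 432 to 572 in control libraries (-0.24, adjusted p = 0.263), and Spi1, which encodes the myeloid ETS factor PU.1, had 167 to 295 in Jmjd1c and 162 to 204 in control libraries (0.15, adjusted p = 0.664, and -0.10 without Jmjd1c 3).

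Genes that the heptad factors are known to control in stem and progenitor cells gave 25 tested members. Of these 2 rose, 0 fell and 23 did not pass, where 1.8% of all tested genes passed, and their median was 0.15. Myb, which drives progenitor proliferation, had 1419, 1683 and 1692 normalized read counts in Jmjd1c libraries and 1283, 1174, 1209 and 1081 in control libraries, or 0.43 ± 0.08 higher on the log2 scale (limma, adjusted p = 0.0343). Eng, which encodes the TGF-beta co-receptor endoglin and whose enhancers bind Fli1, Erg, Gata2 and Tal1, had 387, 518 and 735 in Jmjd1c libraries and 312, 336, 248 and 261 in control libraries, a log2 fold change of 0.88 ± 0.18 (adjusted p = 0.0406). Meis1, a homeobox gene of stem cells, had 3588 to 3864 in Jmjd1c and 3326 to 4096 in control libraries. Mecom, a stem cell zinc finger gene, had 365 to 397 in Jmjd1c and 331 to 423 in control libraries. Hhex, a homeobox gene with a heptad-bound enhancer, had 412 to 457 in Jmjd1c and 338 to 428 in control libraries, and in all 3 genes the groups overlapped.

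Markers of the lineages that share these factors were measured in the same libraries. Of 8 tested megakaryocyte markers Itga2b rose and 7 did not pass, where 1.8% of all tested genes passed. Itga2b had 341, 483 and 460 normalized read counts in Jmjd1c libraries and 287, 282, 294 and 260 in control libraries (log2 fold change 0.59 ± 0.12, limma, adjusted p = 0.0374). Summed over 9 of the listed megakaryocyte markers, the level was 779, 912 and 1164 in Jmjd1c libraries and 742, 698, 819 and 842 in control libraries, so the groups overlapped through Jmjd1c 1. Gp1bb and Gp6, of the platelet receptors for von Willebrand factor and collagen, were at or near 0 in most libraries. Other platelet receptor genes were read throughout. Gp1ba had 32.3 to 50.5 in Jmjd1c and 18.1 to 37.6 in control libraries (log2 fold change 0.51, limma, adjusted p = 0.350). Gp9 had 54.6 to 85.7 in Jmjd1c and 67.6 to 122 in control libraries (-0.33, adjusted p = 0.419). Of the 8 tested megakaryocyte markers 6 were above 0 and 2 below. Of 13 tested erythroid markers 0 passed in limma (1.8% of all tested genes) and 2 had an unadjusted p under 0.05 (19.7%). Of the same 13, 0 passed in edgeR (1.82% of all tested genes) and 1 in DESeq2 (4.6%). Their median log2 fold change was -0.14, with 5 above 0 and 8 below, among them the globin genes Hbb-bs, Hbb-bt, Hba-a1 and Hba-a2, near-identical copies whose reads the counting could split. The smallest p-values were those of Klf1 and Ermap, both above 0. Klf1, the erythroid regulator downstream of Gata1, had 38.9, 74.2 and 97.5 in Jmjd1c libraries and 32.8, 45.9, 16.3 and 22.7 in control libraries (log2 fold change 1.23, adjusted p = 0.102), and Ermap had 0.51 (adjusted p = 0.216). The erythroid sum was 14477 to 15227 in Jmjd1c and 14043 to 16142 in control libraries. Of 9 tested markers of mast cells and basophils, whose development also needs Gata2, Prss34 fell and 8 did not pass, where 1.8% of all tested genes passed. While 48.5% of all tested genes had a log2 fold change above 0, all 9 of these markers had one below 0. The 13 listed markers summed to 4460, 4954 and 2509 in Jmjd1c libraries, below all control libraries at 6027 to 9297. Prss34 alone had 3151, 3409 and 1601 in Jmjd1c and 4421 to 6828 in control libraries, so the sum mostly repeats this gene. Of the 9 tested markers, 3 lay lower in every Jmjd1c library than in any control library, against 7.1% of all tested genes. Gata2 and Gata1 had higher values in the Jmjd1c libraries. Whether any of these populations has a part in the values of Gata1 and Gata2 was not tested.

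Other cell types that use these factors were also measured. Markers of endothelium, which also uses Fli1, Erg and Gata2, summed to 1764 to 1861 in Jmjd1c and 1619 to 2164 in control libraries, with the defining gene Cdh5 at 2.62 or less in every library. Of the 6 tested markers 1 was above 0 and 5 below, 0 passed in limma, edgeR or DESeq2, and 1 had an unadjusted p under 0.05, again against 19.7%. Emcn had 125 to 146 in Jmjd1c and 149 to 233 in control libraries (log2 fold change -0.50, limma, adjusted p = 0.103). Pecam1 had 920 to 975 in Jmjd1c and 837 to 1066 in control libraries (-0.04), and Tie1 had 271 to 331 and 200 to 283 (0.25). Macrophage markers summed to 2147 to 3624 in Jmjd1c libraries, and to 2226 to 3407 in controls 1 to 3 and 9105 in control 4, the library with the lowest Gata2 and Tal1 values. Without control 4 the log2 fold change of Gata2 was 0.43. B and plasma cell markers summed to 11336, 9425 and 28631 in Jmjd1c libraries, the last being Jmjd1c 3, and to 17380 to 23194 in control libraries. Of the 8 tested macrophage markers and the 9 of B and plasma cells 0 passed in limma, edgeR or DESeq2, with 1 and 6 at an unadjusted p under 0.05, against 19.7% of all tested genes. Most lay below 0: 7 macrophage markers (list median -0.48) and 8 B and plasma cell markers (list median -0.99), with 1 above 0 in each list. Over all tested genes 48.5% were above 0. Of 10 neutrophil markers Chil3 fell and 9 did not pass, where 1.8% of all tested genes passed. Of the 10, 1 was above 0 and 9 below (median log2 fold change -0.43). Their sum was 7516 to 10758 in Jmjd1c and 10992 to 14640 in control libraries. The part of these cells in the values of the 10 genes was not tested.

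**Figure D4:**
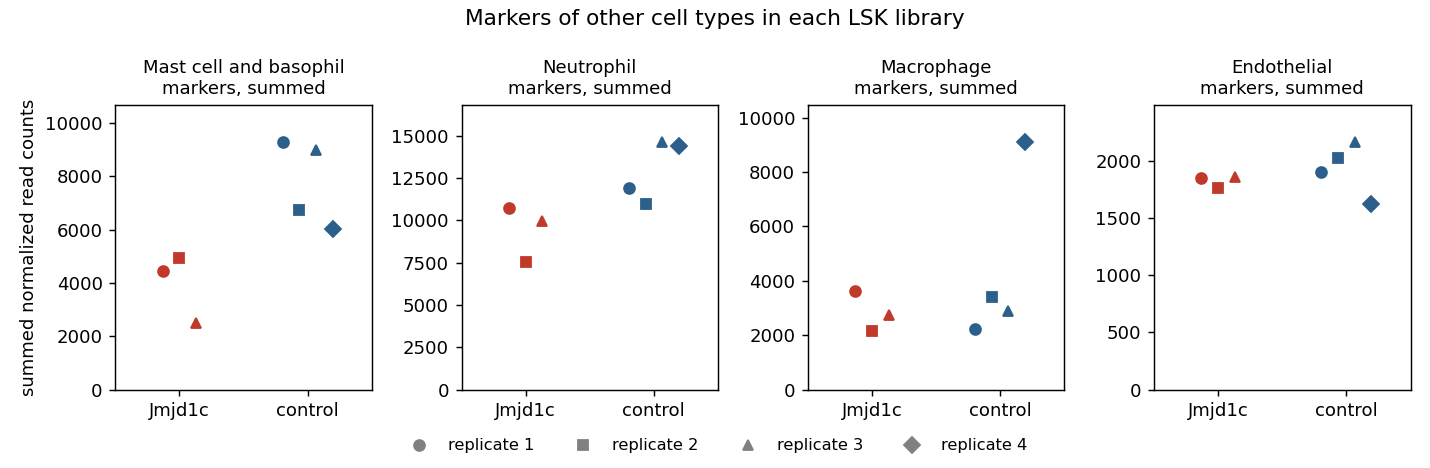
Summed normalized read counts (linear axes from 0) of 4 marker lists in each library, Jmjd1c on the left and control on the right, with a shape for each replicate number. Mast cell and basophil sums, most of which is Prss34, are lower in all Jmjd1c libraries (at most 4954) than in any control library (at least 6027). Neutrophil sums are also lower (at most 10758 in Jmjd1c, at least 10992 in control), and the macrophage sum of control 4 (9105) stands apart.

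The lists held 138 distinct tested genes, and 7 of them passed, where 1.8% of all tested genes did. These 7 calls, 5 higher and 2 lower in Jmjd1c libraries, were close to the threshold. After correction for GC content and length 0 of the 7 passed, with adjusted p-values of 0.0521 to 0.0951. Fewer of all tested genes passed there too, as given below. Each call was lost without Jmjd1c 2, without Jmjd1c 3, without control 2 and without control 3. In these fits few of all tested genes passed, 9 (0.0702%) without Jmjd1c 3 and 3 in each of the others. The call of Runx3 was also lost without control 4, and those of Tcf3, Eng, Itga2b, Prss34 and Chil3 also without control 1. Fewer of all tested genes passed in these fits as well than with all libraries. Over all 7 fits that leave out a library the log2 fold changes stayed on 1 side of 0, at 0.68 to 0.94 for Tcf3, 0.58 to 0.78 for Runx3, 0.38 to 0.51 for Myb, 0.64 to 1.10 for Eng, 0.50 to 0.75 for Itga2b, -1.32 to -0.78 for Prss34 and -0.70 to -0.44 for Chil3. The largest adjusted p in those fits was between 0.175 and 0.218.

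The genes next to the 10 were read for shared changes along the chromosome. Of 20 nearest tested neighbours, 1 on each side, 0 passed in limma, 5 had an unadjusted p under 0.05, against 19.7% of all tested genes, 0 passed in edgeR and 2 in DESeq2, against 4.6% of all tested genes in DESeq2. Beside Gata2, Rpn1 at 88587 bases stood at 0.24 on the log2 scale (limma, adjusted p = 0.0884) and Eefsec at 50302 bases at 0.27 (adjusted p = 0.169, and 0.14 corrected for GC content and length), both smaller than that of Gata2. Beside Gata1, Hdac6 at 11371 bases had 0.20 (adjusted p = 0.397, and 0.11 corrected in the same way), and beside Ldb1, Nolc1 at 30649 bases had 0.20 (adjusted p = 0.176). Pdzk1ip1, 16953 bases from Tal1 and known to share regulation with it, had -0.16 (adjusted p = 0.495). Ets2 lies 115482 bases from Erg and had the largest fold change of these neighbours, while Erg had 0.05.

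The gene whose log2 values followed each of the 10 most closely over the 7 libraries was taken from the 9659 tested genes with a mean of at least 50. For Gata1 it was Def6, with a Pearson r of 0.9999, and Def6 itself rose (log2 fold change 0.61, limma, adjusted p = 0.0343). That call was lost without Jmjd1c 2 (0.65), Jmjd1c 3 (0.46) or any of controls 1, 2 and 3 (0.61 to 0.62), and with transcript GC content and length corrected for (0.41, adjusted p = 0.0865). In each of these fits fewer of all tested genes passed than in the main fit. For Ldb1 it was Fuz (r = 0.997), for Gata2 Cntrob (0.993) and for Lyl1 Map7 (0.990), and the weakest best match was that of Fli1, with Snhg12 (0.959). With 7 libraries from 2 groups and this many genes to choose from, these values describe likeness of pattern in these libraries and no more.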

How the data were processed

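Libraries from 3 Jmjd1c and 4 control samples were made from total RNA by SMARTer Ultra Low amplification and Illumina paired-end preparation, per the labels' protocols. Build mm10 and the tools STAR, HTSeq 0.6.1p1, Trim Galore 0.2.8 and DESeq 1.18.0 are listed in the submitters' processing notes; neither annotation release nor strand setting is. The authors deposited a signal per gene, which is a read count divided by a size factor per library. Whole reads were recovered for 100% of values, within 0.01 of a read. Positions, GC content and lengths came from GENCODE M21 on GRCm38, the assembly that mm10 names.

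From these values log2(value + 1) was fitted with limma 3.58.1 in R 4.3.3, with an intensity trend, 3 Jmjd1c against 4 control libraries and no covariate, for the 12813 genes reaching 10 in 3 or more libraries. On that scale the changes of low genes are understated. Adjusted p-values are Benjamini-Hochberg values over all tested genes, and the threshold was 0.05. Errors are SDs beside means and standard errors beside log2 fold changes. Jmjd1c was also tested by an exact permutation test. edgeR 4.0.16 (quasi-likelihood) and DESeq2 1.42.0 were run on the recovered reads as alternatives, beside other pseudocounts, filters, scalings, weights, a replicate block, a loess correction per library for GC content and length (98.9% of tested genes had values), leaving out each library in turn, and a threshold of 0.1. The steps were checked on simulated data. The members and the gene lists were chosen with earlier results of these data known, so no test was made over a list. Genes named are the 10 members, Jmjd1c, per list at most 6 genes that passed or otherwise the 2 with the smallest p, the LSK and lineage genes, nearest neighbours and the best-matching gene; some are left out, and others named were chosen after their values were seen. The megakaryocyte sum covers 9 of the listed markers; another is not reported here.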

Additional observations from a re-analysis of the deposited data

How the results depend on the processing

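With 3 against 4 libraries, the 95% intervals of the 10 log2 fold changes reach from -0.16 to 0.11 for Fli1 and from -0.65 to 0.19 for Tal1, the gene with the fewest reads. The count of tested genes past the threshold, 231 with 84.0% of them higher in Jmjd1c, was 0 in limma without the intensity trend (2213 with an unadjusted p under 0.05), 590 in DESeq2, 48 after correction for GC content and length (36 higher and 12 lower, or 75% higher) and 716 at a threshold of 0.1. It was 3 to 624 when a library was left out: 624 without Jmjd1c 1, 202 without control 4, 68 without control 1, 9 without Jmjd1c 3, and 3 each without Jmjd1c 2, control 2 and control 3. Of these calls 81.9%, 79.2% and 75% were higher in Jmjd1c without Jmjd1c 1, control 4 and control 1, but 11.1% without Jmjd1c 3 and 0% without Jmjd1c 2, control 2 or control 3, so the mostly higher balance did not hold in those last 4 fits. Of the 10 genes, 1 passed in DESeq2 and 2 at a threshold of 0.1, Gata1 and Gata2, and 0 to 2 passed when a library was left out. The count in the lists, 7 of 138 distinct tested genes, was 0 without the intensity trend, 17 in DESeq2 and 0 after the correction. It was 23 at a threshold of 0.1, and 0 to 17 when a library was left out. Over all tested genes the shares were 1.8% in the main fit, 4.6% in DESeq2 and 5.59% at a threshold of 0.1. Jmjd1c kept a log2 fold change of -0.89 without the trend but did not pass (limma, adjusted p = 0.117), and had -0.97 to -0.83 when a library was left out.

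The replicate numbers are not said to pair the libraries. Deviations of same-numbered libraries from their group means correlated at -0.152, -0.002 and 0.017, and Jmjd1c 1 correlated best with control 4 (0.315). Such deviations sum to 0 within each group, which ties the correlations together, so they cannot tell whether the numbers mark a pairing. Control 4 has no Jmjd1c library of the same number. With the replicate number as a block and no correction, the log2 fold changes were therefore those without control 4, as for Gata2 at 0.43 in both fits. With the block, 14 genes passed (7 higher and 7 lower), and 24 with the block and the correction together (10 higher and 14 lower). The lists gave 1 in each of these fits, and the 10 genes 0. Lyl1 turned to -0.11 with the correction and to -0.15 with block and correction, Fli1 to 0.029 with the correction and 0.0042 with both, Erg to -0.0013 and Runx2 to -0.0083, again with both, and Spi1 to -0.0099 with the correction. When a library was left out, Gata3 had -0.080 to 0.33 and Spi1 -0.10 to 0.31, with the values below 0 from the fit without Jmjd1c 3. The cause of these changes was not tested. Among the 10 genes the direction held under every other alternative run. No scaling moved the median of all genes by over 0.1 on the log2 scale.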
